A study of Mus musculus with 23 samples.

Results

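The data are the DNA methylation levels of the B6 and the CAST allele in hybrid mouse embryos at E7.5, measured by post-bisulphite adaptor tagging (PBAT), a whole-genome bisulphite sequencing method for small samples. The question was which regions keep more methylation on the allele of a given strain, whichever parent passed it on, which genes lie there, and whether the epiblast and the extra-embryonic ectoderm (ExE) agree. The members were the autosomal windows with a value for both alleles in all 8 libraries. They were 237650 of the 384346 autosomal windows and of the 402812 windows in the allelic table.

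All 8 libraries came from wild-type hybrids of C57BL6/Babr (B6) and CAST/Ei (CAST) mice, and the strain of the mother is written first. There were 2 libraries each of B6/CAST epiblast, B6/CAST ExE, CAST/B6 epiblast and CAST/B6 ExE, each prepared from a single embryo after the tissues were separated by hand. The deposited values are percent methylation per window and allele, and the read depth of a value is unknown because no coverage was given. A window tested spanned a median of 5054 bp and held a median of 52 CpG dinucleotides in the GRCm38 sequence.

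The epiblast gives rise to the body of the embryo, and the ExE contributes to the placenta and carries less DNA methylation. An allele can differ in methylation because of the parent it came from, as at imprinted genes, or because of its own strain's sequence or chromatin, which is often called a cis or strain-specific difference. In reciprocal crosses a parental difference changes side with the direction of the cross, whereas a strain difference stays with the strain. Transcription factor binding sites, CpG islands and repeat insertions that vary between strains are among the features known to set the methylation of an allele locally.

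The strain difference was taken within each library as the B6 allele minus the CAST allele, in percentage points, so that a positive value means more methylation on the B6 allele. This was the maternal minus the paternal value in B6/CAST and the paternal minus the maternal value in CAST/B6. Its mean over the 8 libraries was tested in every window with limma, with the tissue as a covariate and Benjamini-Hochberg adjustment over all windows, and an adjusted p under 0.05 was called.

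The reference sequences of the regions that differed most are shown first, to give the CpGs that lie in them. Which of these CpGs were read on either allele is not given. For the 3 largest differences in each direction, a stretch of 250 bases was read from the GRCm38 genome, which is the B6 strain. Among the stretches of a window that touch no exon of the GENCODE annotation, the one with the most CpGs was taken. The sequences are written from the plus strand and have their CpGs in capitals. The CAST sequence was not analysed here.

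The B6 allele was the more methylated in the first 3 windows, and the stretches shown are chr7:63802874-63803123 near Gm7482, chr2:73867769-73868018 in Atf2 and chr14:24356638-24356887 beside Gm18276. They hold 16, 15 and 6 CpGs.
near Gm7482: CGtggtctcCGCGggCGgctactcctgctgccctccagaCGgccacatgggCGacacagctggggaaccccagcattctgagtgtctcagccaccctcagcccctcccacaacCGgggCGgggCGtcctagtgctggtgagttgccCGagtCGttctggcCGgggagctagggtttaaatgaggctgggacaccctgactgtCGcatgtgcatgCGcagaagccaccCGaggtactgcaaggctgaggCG
Atf2: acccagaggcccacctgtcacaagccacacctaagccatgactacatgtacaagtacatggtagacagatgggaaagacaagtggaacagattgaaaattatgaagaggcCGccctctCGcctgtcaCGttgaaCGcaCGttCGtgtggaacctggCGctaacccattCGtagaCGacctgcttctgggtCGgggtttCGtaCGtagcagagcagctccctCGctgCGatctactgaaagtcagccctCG
Gm18276: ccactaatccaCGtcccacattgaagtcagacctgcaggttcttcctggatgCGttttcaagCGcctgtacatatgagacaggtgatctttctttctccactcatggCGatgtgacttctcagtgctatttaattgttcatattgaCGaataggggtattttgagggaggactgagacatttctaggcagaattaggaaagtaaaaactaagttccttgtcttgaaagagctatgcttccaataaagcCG

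The CAST allele was the more methylated in the next 3, and the stretches shown are chr2:18453872-18454121 near Dnajc1, chr4:105245804-105246053 near Plpp3 and chr2:73560887-73561136 near Chrna1. They hold 13, 14 and 13 CpGs.
near Dnajc1: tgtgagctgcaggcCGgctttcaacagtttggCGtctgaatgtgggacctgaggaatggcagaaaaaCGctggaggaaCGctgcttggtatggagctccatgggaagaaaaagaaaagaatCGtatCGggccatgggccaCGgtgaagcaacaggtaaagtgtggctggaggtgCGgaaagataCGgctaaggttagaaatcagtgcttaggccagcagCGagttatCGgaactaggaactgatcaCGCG
near Plpp3: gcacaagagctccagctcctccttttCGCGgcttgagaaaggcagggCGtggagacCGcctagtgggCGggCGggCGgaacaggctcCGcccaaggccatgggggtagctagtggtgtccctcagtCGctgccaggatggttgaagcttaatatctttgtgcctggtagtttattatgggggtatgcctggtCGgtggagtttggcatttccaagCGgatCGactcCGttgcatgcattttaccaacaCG
near Chrna1: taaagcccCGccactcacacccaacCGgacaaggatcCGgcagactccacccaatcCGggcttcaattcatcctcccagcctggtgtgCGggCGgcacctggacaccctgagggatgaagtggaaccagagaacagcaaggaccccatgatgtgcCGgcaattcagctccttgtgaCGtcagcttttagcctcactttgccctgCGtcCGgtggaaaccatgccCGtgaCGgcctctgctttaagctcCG

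Over the windows tested, the mean methylation was 74.7% to 78.8% on the B6 allele and 74.3% to 78.2% on the CAST allele in the epiblast libraries, and 59.5% to 62.6% and 58.8% to 62.1% in the ExE libraries, so the tissues did not overlap. The strain difference was small in most of the genome. It was within 5 percentage points in 170289 windows, or 71.7% of those tested, and within 10 points in 225215 windows, or 94.8%. It reached 20 points in 472 windows (0.199%), of which 316 (0.133%) had the B6 allele higher and 156 (0.0656%) the CAST allele higher. It reached 30 points in 53 windows (0.0223%), 36 with the B6 allele higher (0.0151%) and 17 with the CAST allele higher (0.00715%). The direction was the same in 8 of 8 libraries in 4512 windows, or 1.90%. The B6 allele was the higher in 2783 of them (1.17%) and the CAST allele in 1729 (0.728%).

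Averaged over windows, the B6 allele carried slightly more methylation in every library. In the B6/CAST epiblast the mean difference was 0.438 points in replicate 1 and 0.443 in replicate 2. In the B6/CAST ExE it was 0.522 and 0.462, in the CAST/B6 epiblast 0.647 and 0.581, and in the CAST/B6 ExE 0.744 and 0.520. All 8 values lay above 0 and the tissues overlapped. By cross, the values ran from 0.438 to 0.522 in B6/CAST and from 0.520 to 0.744 in CAST/B6, and the crosses were not compared by a test. The mean was 0.545 ± 0.108 points (SD, n = 8; p = 0.00781, two-sided exact sign-flip permutation test, the smallest p that 8 libraries allow). With same-numbered epiblast and ExE averaged, which leaves 4 values, the exact permutation p was 0.125, the smallest that 4 values allow. The CAST allele also lacked a value in more autosomal windows than the B6 allele in 8 of 8 libraries, in 10.7% to 24.3% against 9.49% to 20.4%, and the part of this in the mean difference was not tested.

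A strain difference was called in 104 windows, 0.0438% of the 237650 tested, and in 24059 windows at an unadjusted p under 0.05. The B6 allele was the more methylated in 69 of them (0.0290% of windows tested) and the CAST allele in 35 (0.0147%). They were spread over all 19 autosomes in 98 separate places when windows within 500 kb were joined. The median size was 27.4 points, from 18.9 to 61.0. At the median over the windows the more methylated allele stood at 71.7% and the other at 44.7%, beside 74.6% and 70.6% over all windows tested. At these medians a methylated allele stood beside a partly methylated one. The more methylated allele reached 60% in 93 of the 104, while the other was under 20% in 5. Over all 237650 windows tested these counts were 208350 and 11156, which are similar shares. The values of the B6 and CAST alleles over the 8 libraries did not overlap in 40 of the 104 windows, and in 98 windows, or 0.0412%, of all those tested.

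The number of calls depended on how many libraries entered. It was 18 to 35 when any 1 library was left out, and 3 when the epiblast and ExE of the same replicate number were averaged, which leaves 4 values. The sources used here do not say whether same-numbered epiblast and ExE came from the same embryo. It was 24 on a logit scale and 388 with a variance trend and robust estimation, and in all of these settings the 104 windows kept their direction. Of the 20 windows described next, 9 were called in all 8 fits with 1 library left out, namely those of Gm7482, Atf2, Gm18276, Gm26561, Pigo, Trim47, Plpp3, Gm18814 and Gclc, and these 9 were also called on the logit scale. The other 11 lost the call on the logit scale and in 2 to 8 of those 8 fits, and the window of Fyco1 also lost it with the cross term (limma adjusted p = 0.0580).

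Among the windows with the B6 allele higher, the most different lay on chromosome 7, 7532 bp from the start of the processed pseudogene Gm7482, at chr7:63800809-63803798. In the epiblast its B6 allele was methylated at 96.7% and 90.0% in B6/CAST and at 92.7% and 89.6% in CAST/B6, and its CAST allele at 19.6%, 22.2%, 36.8% and 38.6% in the same libraries. In the ExE the B6 allele was at 72.7%, 68.8%, 85.6% and 84.6%, and the CAST allele at 16.1%, 8.67%, 33.7% and 17.0%. The alleles did not overlap in any pair of libraries, and the difference was of like size in both tissues. It was 61.0 ± 3.39 points (SE; limma adjusted p = 0.00037).

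The next was an 8589 bp window, chr2:73861514-73870102, inside Atf2, which encodes a bZIP transcription factor that binds cAMP response elements. The window lay 22537 bp from the start of the gene and held the start of another annotated transcript. The strain difference was 49.3 and 79.2 points in the B6/CAST epiblast, 67.5 and 55.0 in the CAST/B6 epiblast, 38.9 and 46.9 in the B6/CAST ExE and 29.2 and 51.8 in the CAST/B6 ExE. The B6 allele had a mean of 84.3% ± 9.25 and the CAST allele of 32.0% ± 10.1 (SD, n = 8), with no overlap (limma adjusted p = 0.00348).

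The processed pseudogene Gm18276 on chromosome 14 overlapped its window, chr14:24352742-24358898. Here the CAST allele was close to unmethylated, with a lowest value of 0%, a median of 11.6% and a highest of 20.8%. The B6 allele ran from 36.7% to 74.1% with a median of 64.9%. The difference was 49.8 ± 4.30 points (SE; limma adjusted p = 0.00475).

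The other windows of the 10 with the B6 allele highest differed by 35.6 to 44.3 points. An intron of the lincRNA gene Gm26561, at chr17:70963220-70966060, differed by 44.3 ± 3.58 points (SE), with the CAST allele between 27.1% and 40.9%. A window that touched an exon of Ryr1, the calcium release channel of skeletal muscle, at chr7:29086008-29087417, differed by 43.2 ± 5.08 points, from 12.1 to 63.8 in the libraries. An intron of Trim47, which encodes an E3 ubiquitin ligase, differed by 37.1 ± 3.33 points at chr11:116110837-116113948. Of these, Gm26561 and Ryr1 kept the alleles apart in the 8 libraries and Trim47 did not.

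A window of 82 CpGs at chr6:3183153-3186886, 169 bp from the pseudogene Gm42642, differed by 37.1 ± 3.69 points (SE). The gene closest to the window at chr8:94799323-94802049, 8404 bp away, was Ccl17, which encodes a chemokine that attracts T cells. Its B6 allele ran from 54.0% to 82.7% and its CAST allele from 15.3% to 52.6%, a difference of 35.6 ± 3.96 points.

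The window at Gstp2, chr19:4044597-4048368, held the 5′ end of the GENCODE gene model for this glutathione S-transferase, a detoxifying enzyme. Its B6 allele ranged from 39.7% to 82.7% with a median of 58.4%, and its CAST allele had a median of 18.6% and a highest value of 58.3%. The difference was 36.7 ± 4.57 points (SE; limma adjusted p = 0.0299), and the alleles overlapped. Gstp1 is a close copy beside Gstp2, so reads could be placed at the wrong copy and the level here is uncertain.

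**Figure D1:**
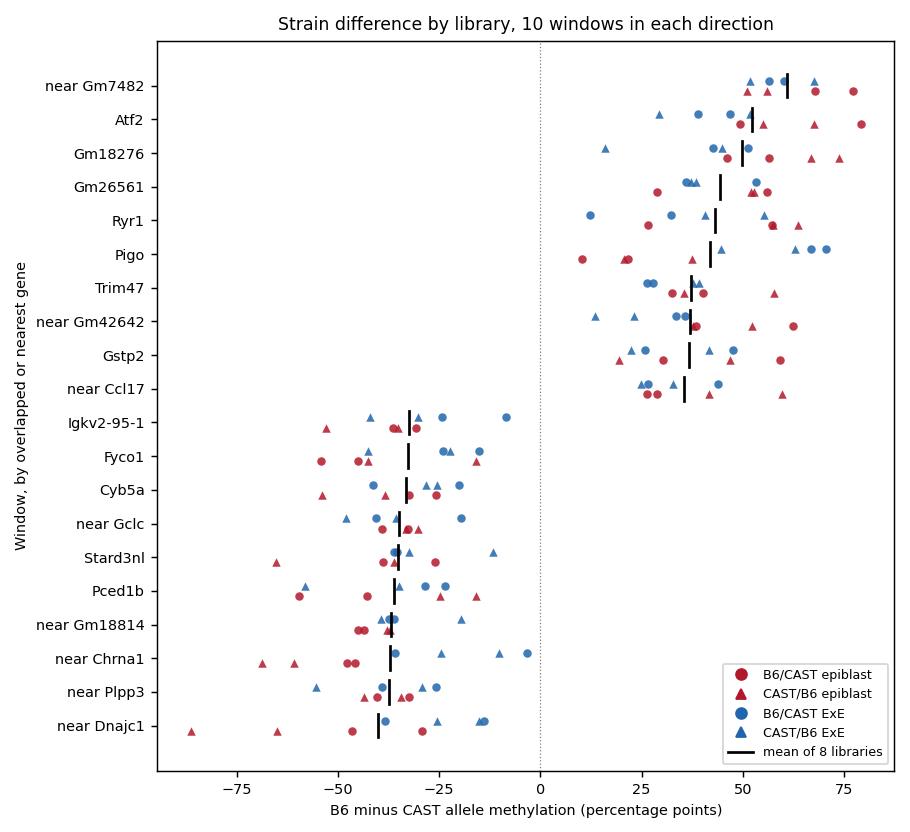
Strain difference (B6 minus CAST allele, percentage points, x axis) in each of the 8 libraries for the 10 largest called windows in each direction (y axis, by gene), with epiblast in red, ExE in blue, B6/CAST as circles, CAST/B6 as triangles and the mean of 8 libraries as a black bar. Every library lies on the side of the mean, and the mean runs from -40.0 points near Dnajc1 to 61.0 points near Gm7482.

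In the windows with the CAST allele higher, the differences were smaller at the top of the list. The most different lay at chr2:18453686-18458371, 60856 bp from Dnajc1, which encodes a co-chaperone of the endoplasmic reticulum. The difference was -29.2 and -46.6 points in the B6/CAST epiblast, -86.4 and -65.2 in the CAST/B6 epiblast, -13.9 and -38.5 in the B6/CAST ExE and -25.5 and -15.1 in the CAST/B6 ExE. It was on average larger in the epiblast, at -56.8 ± 24.6 points, than in the ExE, at -23.2 ± 11.4 (SD, n = 4 each). The mean was -40.0 ± 5.50 points (SE; limma adjusted p = 0.0443). The call was lost on the logit scale (limma adjusted p = 0.221) and in 7 of the 8 fits with 1 library left out, where the adjusted p ran from 0.0415 to 0.149.

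The window at chr4:105244048-105246188, 86701 bp from Plpp3, a lipid phosphate phosphatase gene, had nearly the same difference in both tissues. It was -40.4, -32.4, -34.4 and -43.5 points in the epiblast and -39.0, -25.8, -55.5 and -29.2 points in the ExE. The B6 allele had a mean of 25.7% ± 8.14 and the CAST allele of 63.3% ± 9.58 (SD, n = 8), with no overlap (limma adjusted p = 0.00695).

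On chromosome 2, 18457 bp from Chrna1, the alpha subunit of the muscle acetylcholine receptor, the window chr2:73559255-73561881 had a B6 allele between 13.6% and 37.8%. Its CAST allele was at 81.0%, 75.4%, 82.5% and 95.7% in the epiblast and at 35.3%, 63.5%, 48.0% and 55.5% in the ExE. The tissues did not overlap on the CAST allele, and the mean difference was -37.2 ± 4.07 points (SE; limma adjusted p = 0.0176).

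The smallest standard error of these 10 was that of the window chr15:91075916-91083565, 1754 bp from the pseudogene Gm18814. Its B6 allele ran from 39.6% to 55.6% and its CAST allele from 71.4% to 93.2%, a difference of -37.0 ± 2.95 points (SE; limma adjusted p = 0.00475). The window chr9:77750918-77753856 lay 679 bp from Gclc, the catalytic subunit of the enzyme that limits glutathione synthesis, and differed by -34.9 ± 3.27 points. An intron of Pced1b differed by -36.1 ± 5.11 points at chr15:97336700-97339639 (limma adjusted p = 0.0472). This call was lost with the replicate block (0.0543), with the cross term (0.0672), on the logit scale (0.0985) and in all 8 fits with 1 library left out (0.0679 to 0.167). At chr13:19386567-19392979 a window that touched an exon of Stard3nl, a gene for a protein of late endosomes, differed by -35.3 ± 4.40 points (limma adjusted p = 0.0299). The call of Stard3nl was lost on the logit scale (0.0568) and in all 8 fits with 1 library left out (0.0583 to 0.136).

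The remaining 3 of the 10 differed by about as much. At chr18:84838460-84841836 the start of Cyb5a, which encodes the electron carrier cytochrome b5, had a B6 allele of 45.6% ± 6.63 and a CAST allele of 78.9% ± 9.45 (SD, n = 8), a difference of -33.2 ± 3.61 points (SE). At chr9:123843362-123851551 Fyco1, an adaptor in autophagosome transport, had a B6 allele of 34.2% ± 4.09 and a CAST allele of 66.9% ± 15.2 (SD, n = 8). The immunoglobulin pseudogene Igkv2-95-1, at chr6:68666005-68682365, differed by -32.6 ± 3.89 points, and it belongs to a multigene family in which reads can be shared between copies.

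**Figure D2:**
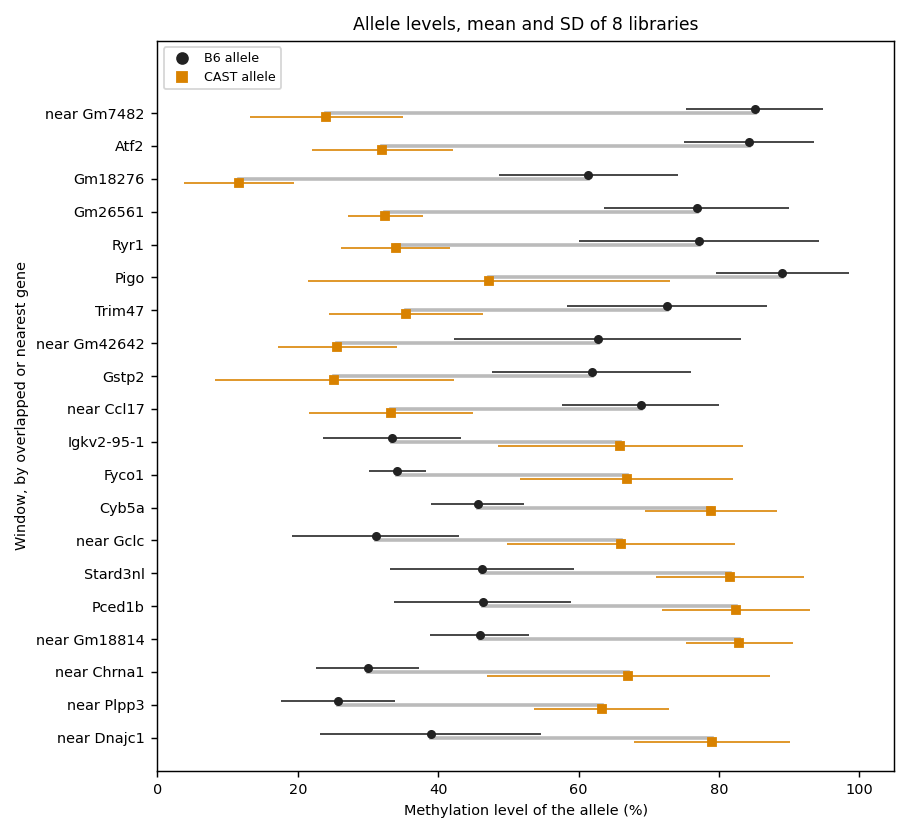
Methylation level (%, x axis) of the B6 allele (black circles) and the CAST allele (orange squares) as mean and SD of 8 libraries in the same 20 windows (y axis). The less methylated allele ranges from a mean of 11.6% at Gm18276 to 47.2% at Pigo.

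Windows with a transcript start of a protein-coding gene made up 14 of the 104, or 13.5%, and 11.1% of all windows tested. In 8 of the 14 the start was that of another transcript, and the 5′ end of the named gene lay outside the window. The 3 largest with the B6 allele higher were Atf2, Pigo and Gstp2, and the 3 largest with the CAST allele higher were Cyb5a, Fyco1 and Slc25a12, a mitochondrial aspartate and glutamate carrier gene. The Slc25a12 window, chr2:71347446-71350697, differed by -7.45, -26.9, -10.5 and -9.83 points in the epiblast and by -28.0, -40.9, -53.2 and -54.5 points in the ExE. The mean was -28.9 ± 3.63 points (SE; limma adjusted p = 0.0317).

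The window at Ddx43, which encodes a DEAD-box RNA helicase of the germ line, was chosen after its values were seen, because it reaches the main promoter. It was chr9:78394010-78395801 and held 49 CpGs. Its B6 allele had a lowest value of 8.85%, a median of 15.7% and a highest of 54.5% over the 8 libraries, and its CAST allele had 31.5%, 46.4% and 70.8%. The CAST allele was the higher in 8 of 8 libraries, although the alleles overlapped across libraries, and the difference was -27.4 ± 3.87 points (SE; limma adjusted p = 0.0472). The 250 bases before the start, chr9:78395527-78395776 on the plus strand from RefSeq (GRCm38.p6), hold 20 CpGs, in capitals.
Ddx43: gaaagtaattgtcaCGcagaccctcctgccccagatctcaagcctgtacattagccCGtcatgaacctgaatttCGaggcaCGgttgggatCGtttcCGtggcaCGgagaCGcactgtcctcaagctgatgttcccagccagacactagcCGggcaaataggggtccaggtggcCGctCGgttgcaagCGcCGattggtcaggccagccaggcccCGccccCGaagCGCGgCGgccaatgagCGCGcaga

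By position, 49 of the 104 windows touched an exon, 16 lay in an intron and 39 lay between genes, shares of 47.1%, 15.4% and 37.5% against 42.3%, 24.0% and 33.6% of all windows tested. Of the 104, 46 (44.2%) overlapped a protein-coding gene, beside 56.3% of all windows tested, and 24 (23.1%) overlapped or lay nearest to a pseudogene, beside 10.4%. The windows called were shorter and had more CpGs per kilobase, with a median length of 3366 bp against 5054 bp and a median of 15.2 CpGs per kb against 10.2. The share called was 0.173% of windows of 1000 to 2000 bp and 0.0229% of those of 8000 bp or more, but limma called 0 of the 5742 windows under 1000 bp, of which 111 (1.93%) had an unadjusted p under 0.05, beside 10.1% of all windows tested. It was 0.0888% where more than 50% of the bases are soft-masked as repeats in the reference and 0.0280% where under 25% are. By the mean of the alleles, 53 of the 104 were between 40% and 60%, where the share called was 0.286% and none was at 80% or above. This mean comes from the same alleles whose difference made the call. A large difference keeps it from the extremes, so the shares by level are a description.

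The adjacent windows differed by less. In the window directly before or after a window called with the B6 allele higher, the median difference was 1.97 and 3.46 points, and at 5 windows away it was 1.35 and 0.761 points. Around windows called with the CAST allele higher it was 0.0513 and -1.82 points in the neighbours. The adjacent windows were centred 3.72 to 4.47 kb away at the median. Of 208 adjacent windows, 152 had a value and 56 (26.9%) were not tested because an allele lacked a value in at least 1 library, beside 24.8% of the windows adjacent to any window tested. Only 5 places held more than 1 called window within 500 kb.

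**Figure D3:**
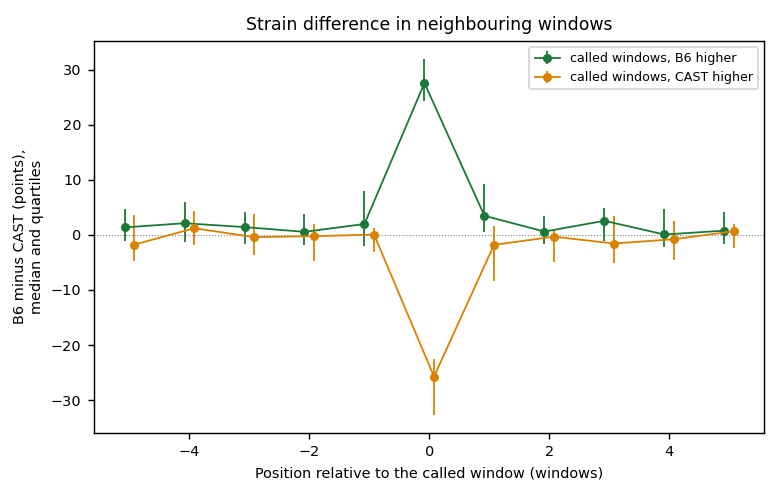
Strain difference (percentage points, y axis; median with quartiles) in the called windows (position 0) and in the 5 windows on either side (x axis), for windows called with the B6 allele higher (green) and the CAST allele higher (orange). The medians of 27.6 and -25.7 points at the called windows fall to between -1.82 and 3.46 points in the adjacent ones.

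The place with the most called windows was a stretch of 246 kb around Klrb1 on chromosome 6, chosen after its values were seen, where 3 of the 31 windows tested were called with the B6 allele higher, beside 0.0290% of all windows tested. The stretch was bounded by its first and last called windows, so this count is a description. Over the 31 windows the difference ran from -19.2 to 28.2 points, with the B6 allele higher in 22 and the CAST allele in 9. Klrb1, a lectin-like receptor gene of natural killer cells, differed by 24.9 ± 3.04 points (SE), from 15.3 to 35.7 in the libraries, at chr6:128698797-128706721. The windows of the pseudogene Gm44216 and of BC035044, which lie on its sides, differed by 26.0 ± 3.08 and 28.2 ± 2.89 points, and were named after their values were seen. The alleles overlapped over the 8 libraries in all 3 windows, and the B6 allele was the higher in 8 of 8 libraries when compared within each. Of the 33 windows on this chromosome that overlapped a gene of the Klr family, 1 was called, that of Klrb1, beside 0.0438% of all windows tested. The B6 allele was the higher in 19 of the 33 and the CAST allele in 14, with a median of 0.772 points beside 0.425 over all windows. The lowest was that of Klra6, another receptor gene of these cells, at -16.8 ± 3.14 points (SE; limma adjusted p = 0.115). Genes here have close copies, so reads could be placed at the wrong one.

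Of the 14 lists of genes and elements, 4 held a called window, 6 windows in all, and 0 to 2 of these 6 were called when 1 library was left out. The protocadherin cluster, whose genes encode adhesion proteins that neurons combine to tell themselves apart, had 2 of 127 windows called (1.57%, beside 0.0438% of all windows tested), both with the B6 allele higher. In the alpha cluster, the window chr18:36977428-36981274 had a B6 allele of 59.7% ± 10.5 and a CAST allele of 25.8% ± 7.25 (SD, n = 8), a difference of 33.9 ± 3.33 points (SE; limma adjusted p = 0.00906). The window chr18:36989273-36992629 at Pcdha8 differed by 29.0 ± 4.10 points. The median over the 127 windows was 0.749 points, beside 0.425 over all windows.

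The vomeronasal receptors, which detect pheromones, had 2 of 243 windows called (0.823%, beside 0.0438% of all windows tested), both with the B6 allele higher. These were Vmn2r-ps159 at chr4:156334296-156345446, with 25.6 ± 3.12 points (SE), and Vmn2r112 at chr17:22620190-22623296, with 23.6 ± 3.17 points. Of the bases in the Vmn2r112 window, 76.0% are soft-masked as repeats. These receptors are a multigene family in which reads can be shared between copies, so the levels are uncertain. Misplaced reads were not examined here or in the protocadherin cluster. The other multigene families of rodents had 1 of 693 (0.144%), at Klrb1. The trophoblast list had 1 of 596 (0.168%), with the CAST allele higher, at chr7:130764463-130767262, which differed by -19.0 ± 2.66 points. This window counts through the long annotation of Fgfr2, a receptor of fibroblast growth factors, and lies over exons of Tacc2, a centrosome protein gene.

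No window was called in the known imprinted genes (1061 windows), the Zfp genes (1636), the clustered Zfp genes (390), the olfactory receptors (703), the major histocompatibility complex (55), the Hox genes (45), the germline genes (106), the genes of pluripotency and epiblast (104), the methylation machinery (225) and the transcribed ERVK LTRs (42), as tested with limma. At an unadjusted p under 0.05 there were 69, 163, 52, 106, 16, 1, 13, 10, 17 and 13 windows in the same order, and trend and robust estimation called 16 windows over the 14 lists. Against 10.1% of all windows at that p, the share was 29.1% in the major histocompatibility complex and 31.0% at the ERVK LTRs. The medians there were 3.56 and 2.54 points, and both lists were small. The share was 2.22% in the Hox genes, whose alleles had means of 14.5% and 14.1%. In the other lists without a call it ran from 6.5% in the known imprinted genes to 15.1% in the olfactory receptors. Whether reads were placed at the wrong copy in these lists was not tested.

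Some windows of the lists had a large difference that was not called, and those given here are not a ranking. At Zfp180, a zinc finger gene, the B6 allele had a mean of 2.54% and the CAST allele of 26.0% at chr7:24081808-24082880 (limma adjusted p = 0.0752). At Zfp872 the B6 allele was the higher by 29.8 points (chr9:22186170-22188278, adjusted p = 0.0821, limma), and at H2-Ob, a class II histocompatibility gene, by 21.2 points (chr17:34234482-34239205, adjusted p = 0.093, limma). The LTR windows with the largest difference, near Anapc15-ps and at 2610037D02Rik, had -19.0 and 17.9 points. These were named after their values were seen.

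The reciprocal crosses separated strain from parent. In a fit with the direction of the cross as a further term, 27 windows (0.0114%) had a maternal minus paternal difference past the threshold, with a median size of 73.3 points. Their median absolute strain difference was 3.01 points. In the main fit, without the cross term, 0 of the 27 were called for strain, beside 0.0438% of all windows tested. A parental difference enters the residual of that fit, so such windows could hardly be called and the count is a description. In the imprinted window within Kcnq1 at chr7:143293438-143295636, the B6 minus CAST difference was 93.7 points in B6/CAST and -94.2 in CAST/B6, so that the strain mean was -0.274 points. The cross term left 74 windows called for strain, of which 65 were among the 104.

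**Figure D4:**
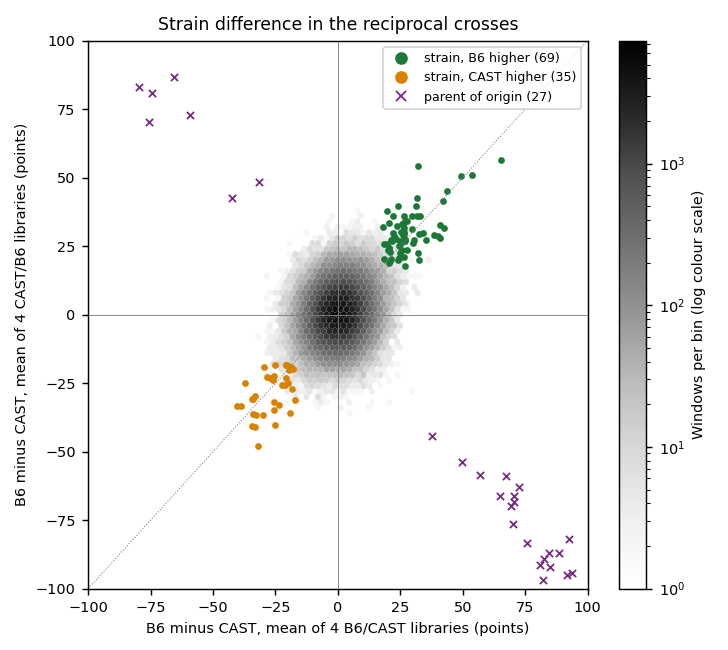
Strain difference (percentage points) as the mean of the 4 B6/CAST libraries (x axis) and of the 4 CAST/B6 libraries (y axis), with all 237650 windows as grey bins on a log colour scale. The 69 and 35 windows called for strain (green and orange) lie near the diagonal on either side of 0, while the 27 windows with a parental difference (purple crosses) lie on the opposite diagonal.

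The difference was tested between tissues in the same fit, and no window passed for the tissue term (0 of 237650, or 0%, with a lowest limma adjusted p of 0.872), while 13595 windows, or 5.72%, had an unadjusted p under 0.05. A window that misses the threshold is not shown to be alike in the tissues. Among the 104 windows called for strain, 26 had an unadjusted tissue p under 0.05. The direction was the same in 4 of 4 epiblast libraries in 104 windows and in 4 of 4 ExE libraries in 102, the exceptions being Gm18859 and Gm5364. These windows were called from the same libraries, so their agreement is a description. The median difference in the direction of the call was 29.3 points in the epiblast and 25.4 in the ExE, and it was larger in the epiblast in 74 windows and in the ExE in 30. Over all windows tested the split was 119051 to 118598.

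Some called windows had unequal values in the tissues, and they are described here although none passed for the tissue term. At Pigo, which encodes an enzyme of the GPI anchor pathway, the window chr4:43019363-43020864 differed by 21.6, 10.2, 20.6 and 37.5 points in the epiblast and by 70.5, 66.8, 62.9 and 44.7 points in the ExE. The B6 allele was at 92.9% ± 3.91 in the epiblast and 85.1% ± 12.3 in the ExE, and the CAST allele at 70.4% ± 10.4 and 23.9% ± 1.23 (SD, n = 4 each). An intron of Col23a1, a collagen gene named after its values were seen, had the same form, with a CAST allele of 71.9% ± 10.1 in the epiblast and 39.2% ± 9.73 in the ExE beside a B6 allele of 91.9% ± 5.20 and 88.1% ± 5.47. The windows near Chrna1 and Dnajc1 went the other way, with the larger difference in the epiblast. All had a limma adjusted p of 0.872 for the tissue term.

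**Figure D5:**
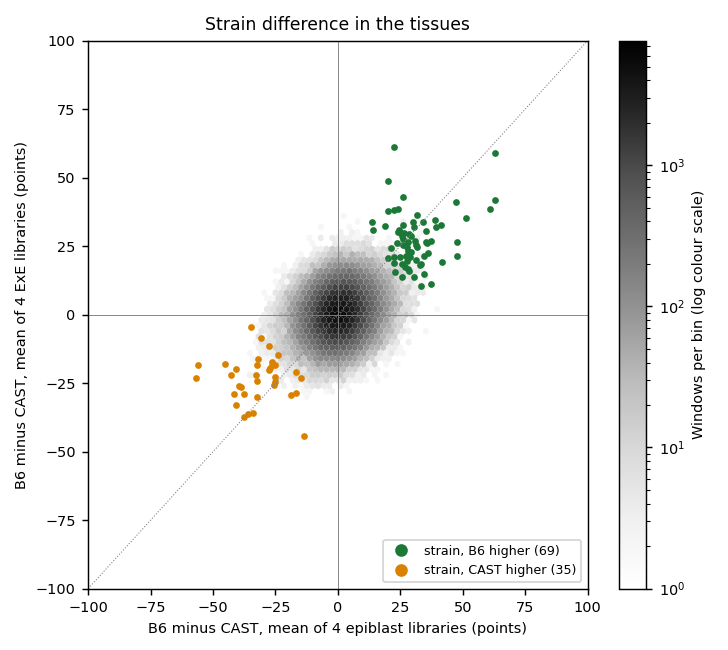
Strain difference (percentage points) as the mean of the 4 epiblast libraries (x axis) and of the 4 ExE libraries (y axis), with all windows as grey bins on a log colour scale and the windows called for strain in green (69) and orange (35). The mean of no called window changes side between the tissues, and the distance from the dotted diagonal is the difference between them.

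An agreement that the calls did not share was seen when a tissue was tested alone and the other was left for comparison. No window passed an adjusted p of 0.05 with limma in the ExE or in the epiblast alone, where 20174 and 16233 had an unadjusted p under 0.05, so the looser limit of an unadjusted p under 0.001 was used. It gave 381 windows in the ExE (0.160%), and in 145 of them, or 38.1%, the 4 epiblast libraries all had the same direction, against 8.59% of all windows. Their median difference in that direction was 24.0 points in the ExE and 8.96 in the epiblast, where it was 0.625 over all windows. In turn, 332 windows were chosen in the epiblast (0.140%), and in 141 of them, or 42.5%, the 4 ExE libraries agreed, against 9.78%, with medians of 27.7 and 10.2 points. Each set was chosen by its values in a single tissue, which raises the median there. The medians therefore do not compare the size of the difference between tissues.

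Across all windows, the strain differences of any pair of libraries were weakly correlated, as a description over 237650 windows that share libraries and reference. Pearson's r was 0.0296 to 0.0402 between libraries of different cross and tissue, 0.0339 to 0.0537 within a tissue across crosses, 0.0530 to 0.0891 within a cross across tissues and 0.0618 to 0.171 within a cross and tissue. A parental difference has the same sign in all libraries of a cross and the opposite sign in the other cross. It therefore also enters these values, and its part was not tested. The spread over windows within a library was 10.6 to 13.6 points (SD).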

How the data were processed

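PBAT reads of the 8 E7.5 libraries were trimmed with Trim Galore, aligned with Bismark to GRCm38 with strain SNPs masked, and sorted by parental genome with SNPsplit by the authors. The deposited values are percent methylation of each parental allele per window, with no coverage and no scaling between libraries, so no binomial interval was computed. The windows carry 100 CpGs by title. The conversion was repeated after poor initial conversion.

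The B6 minus CAST difference per library was fitted with limma 3.58.1 in R 4.3.3 (lmFit, default eBayes; intercept and tissue as ExE +1, epiblast -1), with Benjamini-Hochberg adjustment over 237650 windows and a threshold of 0.05, after the script was tested on simulated data. Python 3.11.15, numpy 2.4.6, pandas 2.3.3 and matplotlib 3.10.9 served the rest. Genes came from GENCODE, and sequences (none from chromosome 18) and CpGs from RefSeq, both GRCm38.

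Named were the 10 largest called windows with the same sign in 8 of 8 libraries in each direction (windows within 50 kb once), 3 with coding starts, and up to 3 per list. A window was named by the gene it overlaps or the nearest start within 100 kb. Members and lists were chosen with earlier results of these data known. The alternatives concerned the scale, the eBayes settings, the cross term, the replicate block, centring, missing values, window choice, imprinted regions and each library. The E6.5 table was not used.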

Additional observations from a re-analysis of the deposited data

Results flagged for a closer look

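In the 26 named windows, the strain difference of the 4 libraries of a tissue was examined, and likewise the mean over windows of the 8 libraries, for a value far from the others (Dixon's test). Of 53 groups examined, 6 held such a value, where chance gives about 1 in 20. At Gm26561 the B6/CAST epiblast replicate 2 had 28.8 points against up to 56.0 in the other libraries, and the B6/CAST ExE replicate 1 had 53.2 points, with 36.1 as the lowest. At Slc25a12 the B6/CAST epiblast replicate 2 had -26.9 points, with -7.45 at the other end. At Vmn2r-ps159 the B6/CAST epiblast replicate 1 had 15.2 points against up to 32.9. Near Gm18814 the CAST/B6 ExE replicate 2 had -19.5 points against down to -39.5, and at Stard3nl the same library had -11.8 points against down to -36.1.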

How the results depend on the processing

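The 104 calls were 24 on the logit scale, 388 with trend and robust estimation, 60 with at most 1 library missing per tissue, 33 in every second window and 3 with the replicate block averaged, and 18 (without CAST/B6 ExE replicate 2) to 35 (without B6/CAST epiblast replicate 2) with 1 library left out. With fewer libraries, fewer values enter each test. The other settings gave 74 to 103 calls, 91 of them with a fitted replicate block, and no window was called for the tissue term in the settings that have one, which the averaged block does not. Same-numbered epiblast and ExE libraries deviated together with correlations of 0.00396 and 0.0108, and the labels do not say that a number marks an embryo, so the numbers were not taken as pairs.

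Of the 20 named windows, 9 were called on the logit scale and 10 to 14 with 1 library left out. Against 6 windows of the lists called, 1 was called on the logit scale, 16 with trend and robust estimation, 0 with the averaged replicate block, 3 with at most 1 library missing per tissue, 3 in every second window and 0 to 2 with 1 library left out. Of the same 6, 0, 6, 0, 3 and 3 were among them, in the order of the first 5 settings. In the ExE alone, default limma gave 0 windows at an adjusted p under 0.05 and 381 at an unadjusted p under 0.001, and trend and robust estimation gave 25 and 866. The mean strain difference was 0.545 with the replicate block averaged, 0.527 in the epiblast alone and 0.562 in the ExE alone, each with an exact permutation p of 0.125, the smallest that 4 values allow, and 0.516 to 0.560 with 1 library left out. No direction of a named window was reversed in any of these settings.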
